A study of Mus musculus with 6 samples.

Results

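Genes that mark the endothelium, the inner lining of blood and lymph vessels, were followed in whole mouse hearts. The set held 36 genes of the 20121 listed in the tables, taken by name from a list of vascular and lymphatic endothelial genes. The rule used no measured value, but the list was drawn up with earlier results of these data known. RNA was sequenced from 6 hearts at postnatal day 14, all on a mixed ICR and C57BL/6 background. The 3 control pups carried TRalphaAMI, a knock-in allele that makes a dominant negative thyroid hormone receptor alpha once Cre has acted, and no Cre. The 3 mutant pups were littermates with the same allele and Myh6-Cre. The Myh6 promoter drives Cre in heart muscle cells, so endothelial cells are not its intended target. These counts do not show in which cells Cre acted. No group had Cre without the allele, and an effect of Cre alone cannot be told apart from that of the receptor.

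Endothelial cells are kept in place by junction proteins such as VE-cadherin and grow and rest under signals that other heart cells send, above all vascular endothelial growth factors and angiopoietins. Heart muscle burns mostly fatty acids, which the capillary wall frees from lipoproteins and hands over. Thyroid hormone acts through nuclear receptors that bind DNA, and the dominant negative receptor blocks the genes that the hormone would switch on.

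The libraries held 43314706 to 62095277 counts. The smallest count of any of the 36 genes in any library was 249, so the endothelial markers were all detected in every heart. Transcripts of the mitochondrial genome took 22.3% to 24.8% of the counts in control and 16.7% to 18.8% in mutant hearts. Since this alters each gene's share of the counts, results were read on different scales; CPM stands for counts scaled to a common library size. With TMM scaling, which sets the bulk of genes to no change on average, the median log2 fold change of all genes was -0.00. With library totals alone it was 0.28. In whole hearts, fewer endothelial cells and less RNA of a gene per endothelial cell cannot be told apart.

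Relative to the bulk of genes, 15 endothelial markers were modestly lower and Prox1 was higher in the mutant hearts. In edgeR's quasi-likelihood test with TMM scaling and Benjamini-Hochberg adjustment over all genes, these 15 were 41.7% of the 36, and 20 did not pass an adjusted p of 0.05. The lower ones were Ptprb, Flt1, Tek, Tie1, Emcn, Ecscr, Erg, Nos3, Rgcc, Ramp2, Icam2, Kdr, Gpihbp1, Pecam1 and Fabp4, with log2 fold changes from -0.73 (Rgcc) to -0.21 (Pecam1). Calls were common in these hearts: 37.5% of all 14877 genes tested were called, 18.1% higher and 19.5% lower, against that share of the markers lower. The median log2 fold change of the 36 was -0.23, and 25.4% of all genes lay below it. The fold change was negative for 34 of the 36.

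On library totals alone this shift was not seen. Without TMM, 1 marker was lower (Ptprb) and 2 were higher (Prox1 and Plvap), while 50.3% of all genes were called higher and 8.11% lower. The median of the 36 was then 0.06, and 23 had a positive fold change. The markers' distance from the median of all genes was -0.23 on both scales. A change of scaling moves every gene by nearly the same amount, so this distance could hardly differ and is not a further test. Together the 36 genes took 0.411% of all counts in control and 0.419% in mutant hearts. Their sum by library total was 4110 ± 151 CPM in control and 4193 ± 130 CPM in mutant hearts (SD, n = 3 each), a difference smaller than the spread. With TMM the sums were 4383, 4512 and 4719 CPM in the control hearts and 3801, 3926 and 3673 CPM in the mutant hearts, so that every mutant heart lay below every control heart. A lower level below therefore means lower relative to the bulk of the heart's transcripts, and CPM values are TMM-scaled unless stated.

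**Figure D1:**
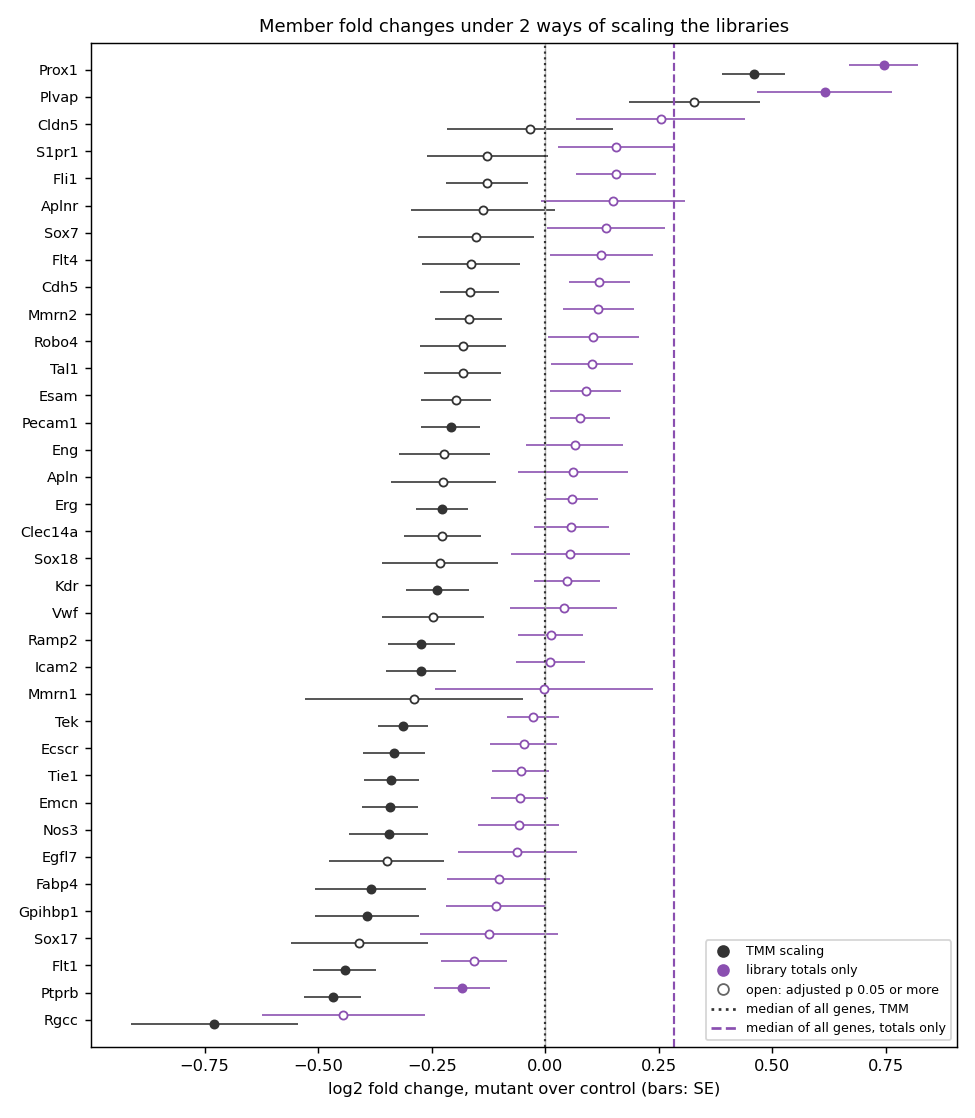
Log2 fold change (mutant over control, horizontal axis) of each of the 36 endothelial genes with its SE, with TMM scaling (black) and by library totals alone (purple); filled points passed an adjusted p of 0.05, and the vertical lines mark the median of all genes on each scale. With TMM 16 points are filled and 34 lie left of 0, whereas by totals alone 3 are filled (Prox1, Plvap and Ptprb) and most lie between 0 and the median of all genes at 0.28.

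Leaving mitochondrial transcripts out of the library totals gave values between these. Then 4 markers were lower (Ptprb, Rgcc, Flt1 and Tie1), Prox1 and Plvap were higher, and the median was -0.06, with 35.8% of all genes called higher and 11.1% lower. A further scale, chosen after the data were seen, set the libraries level by 28 other endothelial genes. On it Ptprb (-0.25 on the log2 scale, adjusted p = 0.0162), Flt1 (-0.23, adjusted p = 0.0192) and Rgcc (-0.50, adjusted p = 0.0355) were lower relative to the average of those 28, each weighted alike. Prox1 (0.68, adjusted p = 1.06e-04) and Plvap (0.55, adjusted p = 0.00822) were higher. Over all genes, this scale called 40.2% higher and 9.48% lower. The 28 genes did not move alike on it. Among them Ly6a (-0.65), Aqp1 (-0.37), Podxl, Ly6c1 and Adgrf5 were themselves called lower. Fam167b (1.08), Lmo2 (0.28), Bcl6b and Tspan18 were called higher.

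Of the 8 members with the smallest adjusted p, the receptor group held Ptprb, Flt1, Tek and Tie1. Ptprb encodes VE-PTP, a phosphatase of the endothelial membrane that removes phosphate from the angiopoietin receptor and from VE-cadherin (mm10 chromosome 10, 116275523 to 116389535, plus strand). It measured 336, 318 and 315 CPM in the control hearts and 237, 242 and 221 CPM in the mutant hearts. The groups did not overlap, and the 3 mutant hearts lay close together. The difference was 1.38-fold, or -0.47 ± 0.06 (SE) on the log2 scale, and edgeR gave an adjusted p of 3.14e-04. Ptprb was also the lower gene by library totals, at 304, 288 and 285 CPM in control and 257, 268 and 249 CPM in mutant hearts (log2 fold change -0.18, adjusted p = 0.0261).

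Tek encodes TIE2, the receptor that binds angiopoietins, and Tie1 encodes its partner. Tek (chromosome 4, 94739289 to 94874976, plus strand) measured 118, 118 and 116 CPM in control and 92.7, 97.5 and 93.6 CPM in mutant hearts. Tie1 (chromosome 4, 118471191 to 118490061, minus strand) measured 209, 232 and 228 CPM in control and 176, 178 and 175 CPM in mutant hearts. Neither gene's groups overlapped, and both were tightly grouped in mutant hearts. Tek was 1.24-fold lower (log2 fold change -0.31 ± 0.05 SE, adjusted p = 0.00167) and Tie1 1.26-fold lower (-0.34 ± 0.06, adjusted p = 0.00193). By library totals their log2 fold changes were -0.03 and -0.05, and neither passed.

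Among the receptors for vascular endothelial growth factors, Flt1 differed most. Flt1 encodes VEGFR1, which binds the growth factor tightly and signals weakly (chromosome 5, 147561604 to 147726011, minus strand). It measured 164, 159 and 175 CPM in control and 116, 132 and 119 CPM in mutant hearts, with a wide gap between the groups. That was 1.36-fold lower (log2 fold change -0.44 ± 0.07 SE, adjusted p = 9.31e-04), and by library totals -0.16 (adjusted p = 0.0885). Kdr, the main signalling receptor VEGFR2, measured 245, 281 and 253 CPM in control and 213, 219 and 229 CPM in mutant hearts. Kdr was 1.18-fold lower with TMM (adjusted p = 0.0227), with a log2 fold change of 0.05 by library totals. Flt4, the lymphatic receptor VEGFR3, measured 18.1, 21.6 and 22.7 CPM in control and 16.2, 20.3 and 19.2 CPM in mutant hearts. Its groups overlapped and it did not pass (adjusted p = 0.269).

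Upstream sequence is printed for 4 genes, Tek, Kdr and Flt1 because they are receptors called lower and Prox1 because it is the member called higher. Bases come from RefSeq on GRCm38.p6, read 5′ to 3′ on each gene's strand, with bases in annotated exons left out. They end just before the RefSeq start (3 bases before it for Kdr). For Prox1 this start lies upstream of the gene's start in GENCODE M21 (190170714), and another RefSeq window of Prox1 is not printed. The spans are chr4:94739039-94739288 (plus) for Tek, chr5:75978459-75978705 (minus) for Kdr, chr5:147726012-147726261 (minus) for Flt1 and chr1:190170828-190171077 (minus) for Prox1. Capitals mark CAGGAA or CCGGAA, short words that hold the core bound by ETS factors such as ERG and FLI1, on either strand (TTCCTG or TTCCGG when read from the other strand).
Tek: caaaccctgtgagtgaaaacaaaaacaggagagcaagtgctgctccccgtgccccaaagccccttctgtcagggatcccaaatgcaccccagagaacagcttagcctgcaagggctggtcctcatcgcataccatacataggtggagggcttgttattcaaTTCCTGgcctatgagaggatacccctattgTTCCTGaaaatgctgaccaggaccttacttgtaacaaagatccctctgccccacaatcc
Kdr: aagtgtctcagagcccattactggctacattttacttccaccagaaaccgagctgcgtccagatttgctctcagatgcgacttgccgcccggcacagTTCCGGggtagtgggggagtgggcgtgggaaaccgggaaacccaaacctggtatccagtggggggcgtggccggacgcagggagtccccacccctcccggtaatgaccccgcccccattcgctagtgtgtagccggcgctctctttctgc
Flt1: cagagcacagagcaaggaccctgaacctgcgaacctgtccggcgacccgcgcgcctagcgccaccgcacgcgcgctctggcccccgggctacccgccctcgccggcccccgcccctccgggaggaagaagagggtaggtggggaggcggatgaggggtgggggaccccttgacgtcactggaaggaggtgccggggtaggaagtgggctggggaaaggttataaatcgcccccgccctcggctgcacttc
Prox1: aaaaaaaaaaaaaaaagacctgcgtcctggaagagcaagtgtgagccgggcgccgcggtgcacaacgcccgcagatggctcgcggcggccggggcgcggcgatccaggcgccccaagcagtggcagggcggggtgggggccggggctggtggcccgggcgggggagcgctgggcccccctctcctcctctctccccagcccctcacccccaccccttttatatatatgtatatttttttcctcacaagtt
Tek holds 2 such words, whose first bases lie at -89 and -59 from its start, and Kdr holds 1, at -153. Flt1 and Prox1 hold neither CAGGAA nor CCGGAA in these bases. Both words hold GGAA, and other words with GGAA were not marked or counted. Some stand in the printed bases, such as AGGAAG in Flt1 and TGGAAG in Prox1, so a lack of capitals does not show a lack of ETS sites. A window of 300 bases, from 250 before to 50 after a start, was given for 17 of the 36 genes (23 windows) among 32851 windows in all. CAGGAA stood in 47.8% of the members' windows and 30.6% of all, in 10 members: Apln, Clec14a, Egfl7, Emcn, Eng, Erg, Mmrn1, Robo4, Tek and Tie1. CCGGAA stood in 4.35% of the members' windows (Kdr) and 14.9% of all. The nuclear receptor half-site AGGTCA stood in 17.4% of the members' windows (Egfl7, Emcn, Erg and Robo4) and 16.3% of all. The other words searched, on both strands, were ACAAAG (21.7% of members' windows against 18.7% of all) and ACAATG (8.7% against 12.6%) for SOX factors, AGATAA for GATA factors (13% against 11.2%), GTAAACA for forkhead factors (0% against 3.65%) and TATAAA (13% against 13.6%). These shares are descriptions of letters in a window and were not tested.

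Ramp2 was called among the remaining receptors, and the others and the peptide apelin did not pass. Ramp2, which helps the adrenomedullin receptor reach the membrane, was 1.21-fold lower (72.4 ± 4.97 to 59.9 ± 3.67 CPM, SD, n = 3 each, adjusted p = 0.0168). Of its exon bases 33.4% are shared with Vps25 on the same strand, so its counts are uncertain. Eng, the TGF-beta co-receptor endoglin, measured 212, 252 and 252 CPM in control and 176, 220 and 217 CPM in mutant hearts. Its control replicate 1 lay below mutant replicates 2 and 3, and Eng did not pass (adjusted p = 0.115). S1pr1, the receptor for sphingosine 1-phosphate, measured 154, 134 and 200 CPM in control and 163, 150 and 135 CPM in mutant hearts, fully intermixed. Aplnr, the apelin receptor, measured 187, 157 and 113 CPM in control and 131, 157 and 128 CPM in mutant hearts, and the control hearts spanned the mutant ones. Apln, its ligand, measured 16.1, 15.6 and 12.9 CPM in control and 11.1, 14.1 and 13 CPM in mutant hearts, again with overlap. Of the 11 genes in this group 6 were lower with TMM (median log2 fold change -0.24), and by library totals 1 was (median 0.05). Over all genes 19.5% were lower with TMM and 8.11% by totals, so the count by totals was near that share.

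**Figure D2:**
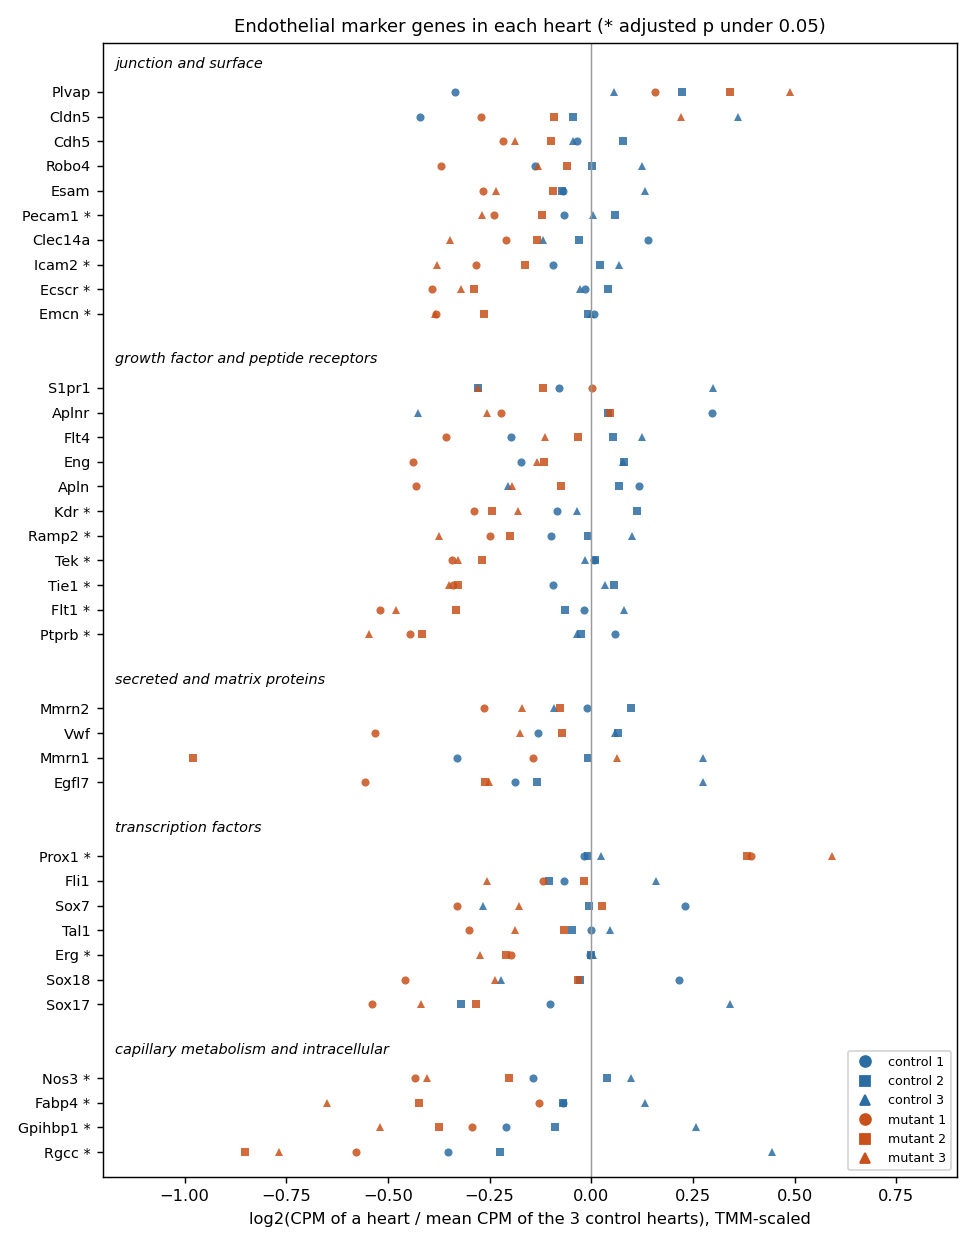
Level of each endothelial gene in each heart, as log2 of its TMM-scaled CPM over the mean of the 3 control hearts (horizontal axis), grouped by role; blue symbols are control hearts, orange ones mutant hearts, and a star marks an adjusted p under 0.05. Ptprb, Flt1, Tie1 and Tek show mutant hearts clear of the control hearts on the left, Prox1 on the right, and Cldn5, Aplnr and S1pr1 are mixed.

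Among the junction and surface proteins, Emcn and Ecscr had the smallest adjusted p. Emcn, the sialomucin endomucin of veins and capillaries, measured 58.8, 58.2 and 58.4 CPM in control and 44.9, 48.7 and 44.8 CPM in mutant hearts. Ecscr, a surface protein of migrating endothelial cells, measured 18.6, 19.4 and 18.5 CPM in control and 14.4, 15.4 and 15.1 CPM in mutant hearts. In both genes the control hearts were nearly equal and no mutant heart reached them. Emcn was 1.27-fold lower (log2 fold change -0.34 ± 0.06 SE, adjusted p = 0.00188) and Ecscr 1.26-fold lower (-0.33 ± 0.07, adjusted p = 0.00423). By library totals they stood at -0.06 and -0.05.

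Pecam1, the adhesion molecule CD31, went from 268 ± 11.6 to 232 ± 12.8 CPM (1.16-fold lower, adjusted p = 0.0314), and Icam2, an adhesion molecule for leukocytes, from 30.5 ± 1.74 to 25.2 ± 1.91 CPM (1.21-fold lower, adjusted p = 0.0189; SD, n = 3 each). By library totals both had a positive fold change (0.08 and 0.01). Cdh5, or VE-cadherin, measured 440, 475 and 437 CPM in control and 388, 421 and 396 CPM in mutant hearts. Its groups did not overlap, but it did not pass (log2 fold change -0.17 ± 0.06 SE, adjusted p = 0.0706). Esam, a tight junction adhesion molecule (-0.20, adjusted p = 0.073), and Clec14a, a surface lectin (-0.23, adjusted p = 0.0612), likewise showed separate groups without passing.

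Cldn5, the tight junction protein claudin 5, varied among hearts of the same group. It measured 42.5, 55.1 and 72.9 CPM in control and 47.1, 53.3 and 66.3 CPM in mutant hearts. The groups lay over each other (log2 fold change -0.03 ± 0.18 SE, adjusted p = 0.906). Robo4, which steadies the vessel wall, measured 74.5, 82.2 and 89.6 CPM in control and 63.5, 78.8 and 75 CPM in mutant hearts, with overlap (adjusted p = 0.166).

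Plvap, which forms the diaphragms of fenestrated vessels and is low in mature heart capillaries, was the surface gene that went the other way. It measured 6.63, 9.76 and 8.68 CPM in control and 9.31, 10.6 and 11.7 CPM in mutant hearts, so that the groups overlapped and it did not pass with TMM (log2 fold change 0.33 ± 0.14 SE, adjusted p = 0.101). By library totals the groups separated, at 6.00, 8.86 and 7.86 CPM in control and 10.1, 11.7 and 13.2 CPM in mutant hearts. There the log2 fold change was 0.62 ± 0.15 (SE, edgeR adjusted p = 0.00579). Of the 10 junction and surface genes, 4 were lower with TMM and none by totals, where Plvap was the higher one. Over all genes 19.5% were lower with TMM, and 8.11% were lower and 50.3% higher by totals.

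The 4 genes of capillary metabolism and the cell interior were lower with TMM and none of them passed by library totals. Over all genes 19.5% were lower with TMM, and 8.11% were lower and 50.3% higher by totals. Fabp4, which carries fatty acids inside capillary cells and is also made by fat cells and macrophages, measured 794, 795 and 914 CPM in control and 763, 622 and 532 CPM in mutant hearts. Mutant replicate 1 lay close to the control hearts. Fabp4 was 1.31-fold lower (log2 fold change -0.38 ± 0.12 SE, adjusted p = 0.0328). Fat cell markers were near 0: of 7 listed, Adipoq, Cidec, Lep, Retn and Cfd were not among the listed genes and the other 2 summed to 0.071 to 0.142 CPM in control and 0.0787 to 0.110 CPM in mutant hearts. Macrophage markers were lower (8 of 10, summing to 165 to 179 CPM in control and 107 to 112 CPM in mutant hearts), and their part in the Fabp4 difference was not tested.

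Gpihbp1, which anchors lipoprotein lipase on the capillary surface, measured 102, 111 and 141 CPM in control and 96.3, 91.1 and 82.3 CPM in mutant hearts. The control hearts were spread more widely (1.31-fold lower, adjusted p = 0.0230). Rgcc, a cell cycle regulator that responds to complement and hypoxia, measured 27.7, 30.3 and 48.2 CPM in control and 23.7, 19.6 and 20.8 CPM in mutant hearts. Control replicate 3 stood far above the other hearts, and the fold change of 1.66 in Rgcc was the largest and least precise of the called members (log2 fold change -0.73 ± 0.18 SE, adjusted p = 0.0117). Nos3, the endothelial nitric oxide synthase, measured 39.8, 45.2 and 47.1 CPM in control and 32.6, 38.3 and 33.3 CPM in mutant hearts, without overlap (1.27-fold lower, adjusted p = 0.0117). Of the Nos3 exon bases 32.3% lie opposite Gm15587, an antisense transcript, and with a kit that does not mark strand their reads cannot be told apart.

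The transcription factors went in both directions. Prox1, which gives lymphatic endothelial cells their identity and is also active in heart muscle cells, was the called member that was higher on every scale (chromosome 1, 190118035 to 190170714, minus strand). It measured 120, 121 and 123 CPM in control and 159, 158 and 182 CPM in mutant hearts. Every mutant heart stood well above the nearly equal control hearts. The log2 fold change was 0.46 ± 0.07 (SE, edgeR adjusted p = 7.07e-04), and by library totals it was 0.75 ± 0.08 (adjusted p = 4.26e-05). Other lymphatic genes did not pass as higher with TMM: 2 of 9 outside the members were lower and none higher (3 higher and none lower by totals). Over all genes 19.5% were lower and 18.1% higher with TMM, and 50.3% were higher and 8.11% lower by totals. The count of 2 lower was near that share. The sum of these 9 lymphatic genes ran from 236 to 276 CPM in control and from 236 to 255 CPM in mutant hearts. Lyve1, the hyaluronan receptor of lymphatic cells and some macrophages, measured 14.5, 12.8 and 15.9 CPM in control and 10.7, 9.58 and 11.7 CPM in mutant hearts (log2 fold change -0.43, adjusted p = 0.0106; -0.15 by totals). Itga9, an integrin of lymphatic valves, was also lower with TMM (-0.24, adjusted p = 0.0253), with 0.05 by totals. Which cells the Prox1 transcripts come from was not tested.

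Erg, an ETS factor that keeps endothelial cells in their mature state, measured 41.5, 41.6 and 41.7 CPM in control and 36.3, 36.0 and 34.4 CPM in mutant hearts. Among the 36 genes Erg had the most even control values (a coefficient of variation of 0.197%). It was 1.17-fold lower (log2 fold change -0.23 ± 0.06 SE, adjusted p = 0.0122). By library totals it turned over, with 37.6, 37.7 and 37.7 CPM in control and 39.3, 39.8 and 38.6 CPM in mutant hearts, a log2 fold change of 0.06 that did not pass (adjusted p = 0.409). Its relative Fli1 measured 31.7, 30.9 and 37.1 CPM in control and 30.6, 32.8 and 27.8 CPM in mutant hearts, with overlap. Tal1, a blood and vessel lineage factor, had separate groups (13.1, 12.7 and 13.5 CPM against 10.6, 12.5 and 11.5 CPM) and did not pass (adjusted p = 0.124).

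The SOX factors, which act in early and arterial endothelium, did not pass in edgeR. Sox17 measured 22.6, 19.4 and 30.7 CPM in control and 16.7, 19.9 and 18.1 CPM in mutant hearts (log2 fold change -0.41 ± 0.15 SE, adjusted p = 0.0582), and 16.8% of its exon bases lie opposite Gm37587. DESeq2 did call Sox17 (adjusted p = 0.0221). Sox7 measured 54.2, 46 and 38.4 CPM in control and 36.8, 47.1 and 40.9 CPM in mutant hearts, and Sox18 measured 62.2, 52.5 and 45.9 CPM in control and 39, 52.3 and 45.4 CPM in mutant hearts. In both, control replicate 1 was the highest heart and mutant replicate 1 the lowest. Of the 7 transcription factors 1 was higher and 1 lower with TMM, and 1 was higher by totals. Over all genes 18.1% were higher and 19.5% lower with TMM, and 50.3% were higher by totals.

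None of the 4 secreted and matrix proteins passed in edgeR, where Egfl7 and Mmrn2 had an unadjusted p under 0.05. Egfl7, a matrix protein around new vessels, measured 119, 124 and 164 CPM in control and 92.2, 113 and 114 CPM in mutant hearts, with separate groups (log2 fold change -0.35 ± 0.13 SE, adjusted p = 0.0566). DESeq2, a second count test, did call Egfl7 (adjusted p = 0.0220), and 9.41% of its exon bases are shared with Gm20532. Vwf, the clotting factor von Willebrand factor, measured 64.2, 73.5 and 73.1 CPM in control and 48.6, 66.8 and 62.2 CPM in mutant hearts. Mutant replicate 1 was the low heart, and the groups overlapped (adjusted p = 0.115). Mmrn2, which binds CLEC14A, measured 67.5, 72.8 and 63.8 CPM in control and 56.7, 64.4 and 60.4 CPM in mutant hearts. Mmrn1, a multimerin of platelets and lymphatic vessels, was the least even of the mutant group (7.68, 9.6 and 11.7 CPM against 8.74, 4.9 and 10.1 CPM).

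Groups did not overlap for 21 of the 36 genes with TMM, of which 5 were not called (Cdh5, Esam, Egfl7, Clec14a and Tal1). Over all genes tested this was true of 49.8%. By library totals 4 of the 36 did not overlap, Ptprb lower and Prox1, Plvap and Erg higher in mutant hearts, against 64.3% of all genes. For the 36, the median coefficient of variation among hearts of a group was 8.43% in control and 8.28% in mutant hearts. For all genes tested it was 7.98% and 7.53%, without matching for level. The highest of the 36 was 31.5% in control hearts (Rgcc) and 34% in mutant hearts (Mmrn1).

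Of the 16 called genes, 9 stayed called whichever heart was left out (Flt1, Tek, Tie1, Emcn, Erg, Prox1, Ptprb, Nos3 and Ecscr). Fabp4 did not pass without control replicate 1, 2 or 3 or mutant replicate 2 or 3 (adjusted p = 0.0514, 0.0606, 0.0914, 0.0934 and 0.0860). Pecam1 did not pass without control replicate 2 or 3 or mutant replicate 1 or 3 (0.111, 0.0705, 0.0596 and 0.0979). Kdr lost its call without mutant replicate 1 or 2 or control replicate 2 (0.0517, 0.0724 and 0.0891), and Icam2 without control replicate 2 or 3 or mutant replicate 3 (0.0649, 0.0613 and 0.0705). Gpihbp1 was lost without mutant replicate 2 or 3 (0.0623 and 0.0733), Ramp2 without mutant replicate 3 (0.0623) and Rgcc without mutant replicate 2 (0.0516). Without control replicate 3 the log2 fold change of Rgcc was -0.44. In the other direction, Eng (0.0475) and Egfl7 (0.0361) passed without control replicate 1, Sox17 (0.0190) without control replicate 2 and Clec14a (0.0313) without control replicate 3.

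Per length of transcript the order of the genes was largely kept, with the same 4 genes at the top in both groups. RPKM values, which carry no TMM scaling, placed Fabp4 first in control hearts (167 ± 13.6) and in mutant hearts (156 ± 25.4). Cdh5 came next (96.6 ± 4.74 and 105 ± 5.46), followed by Eng (53.1 ± 5.19 and 55.5 ± 7.56) and S1pr1 (48.2 ± 9.96 and 53.7 ± 4.15; SD, n = 3 each). Eng and S1pr1 lay within each other's spread, whereas Fabp4 and Cdh5 were apart. The lowest were Tal1 at 2.70, Flt4 at 2.28 and Mmrn1 at 1.48 RPKM in control hearts. Prox1 moved from place 21 (13.0 ± 0.186 RPKM) to place 16 (21.8 ± 2.17), Plvap from 33 (3.79 ± 0.725) to 30 (5.83 ± 0.775), and Rgcc from 11 (34.8 ± 10.9) to 14 (25.5 ± 2.13).

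**Figure D3:**
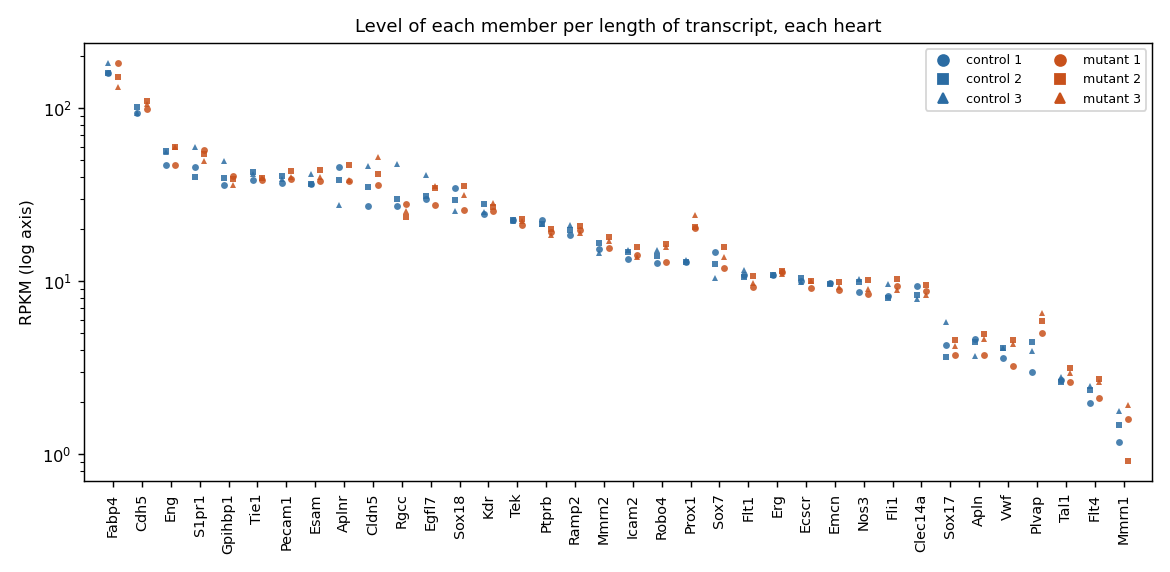
RPKM of each endothelial gene in each heart (log axis), ordered by the control mean; blue symbols are control hearts and orange symbols mutant hearts. Levels run from Fabp4 at 167 RPKM to Mmrn1 at 1.48 RPKM in control hearts, and Prox1, Plvap and, by a narrow margin, Erg have all mutant hearts above all control hearts.

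Other genes of the endothelium were counted in the same way. Each list count from here on stands beside 18.1% of all genes higher and 19.5% lower with TMM. By totals these shares were 50.3% higher and 8.11% lower. Of 28 further endothelial genes 14 were lower and 1 higher with TMM (median log2 fold change -0.27), and 3 lower and 7 higher by totals (median 0.02). Ly6a, the stem cell antigen Sca-1 of capillaries, was the most clearly lower (46.4 ± 1.88 to 25.5 ± 3.11 CPM, SD, n = 3 each, adjusted p = 7.37e-05, log2 fold change -0.86, and -0.58 by totals). Podxl, the sialomucin podocalyxin (-0.47, adjusted p = 2.99e-04), and Aqp1, the water channel of capillaries (-0.59, adjusted p = 0.00154), were also lower on both scales (-0.19 and -0.31 by totals). Ly6a, Podxl and Aqp1 were the 3 genes lower by totals. Cd34 (-0.01) and Cd93 (-0.02) did not pass with TMM. Both were among the 7 higher by totals (0.28 and 0.26, edgeR adjusted p = 0.0366 and 0.0134). The gene higher with TMM, Fam167b, was at under 1 CPM and is named after its values were seen.

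Growth factors and other ligands that act on vessels were listed apart, not all of them binding a receptor named above. Angpt1, the angiopoietin that activates TIE2 and comes from cells around the vessel, measured 26.6, 22.9 and 24.0 CPM in control and 11.1, 15.5 and 11.5 CPM in mutant hearts. No mutant heart came near the control hearts (1.93-fold lower, log2 fold change -0.95 ± 0.13 SE, adjusted p = 3.34e-04, and -0.66 by totals). Exon bases of Angpt1 lie in part (14.2%) opposite Gm17473. Fgf1, a fibroblast growth factor, was 1.95-fold lower (236 ± 16.7 to 121 ± 1.67 CPM, adjusted p = 5.40e-06), and Cxcl12, the ligand of CXCR4, 1.48-fold lower (218 ± 10.7 to 148 ± 15.8 CPM, adjusted p = 6.18e-04; SD, n = 3 each). Both were lower by totals as well (-0.68 and -0.28). Vegfa, the ligand of Flt1 and Kdr, measured 338, 370 and 333 CPM in control and 296, 324 and 331 CPM in mutant hearts and did not pass (adjusted p = 0.179). Vegfb, another ligand of Flt1, was lower with TMM (174 ± 12.2 to 133 ± 9.23 CPM, adjusted p = 0.00313), and so was Vegfc, a ligand of Flt4 (11.4 ± 0.844 to 8.81 ± 0.222 CPM, adjusted p = 0.00728; SD, n = 3 each). Their log2 fold changes were -0.38 for both with TMM, and -0.10 and -0.09 by totals. Angpt2, the angiopoietin that can oppose Angpt1, did not pass either (adjusted p = 0.665).

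Of the 17 ligands listed, 15 were tested (Apela and Gdf2 were not among the listed genes): 6 were lower and 2 higher with TMM (median -0.22), and 3 lower and 5 higher by totals. The higher ones, named after their values were seen, were Adm, or adrenomedullin (7.14 ± 0.628 to 10.8 ± 0.938 CPM, adjusted p = 0.00152), and Bmp10, at no more than 0.0355 CPM in any control heart and 0.395, 0.256 and 0.736 CPM in mutant hearts. Among 16 co-receptors and signal partners 3 were lower and 1 higher with TMM (1 and 6 by totals). Ramp3, the relative of Ramp2, was 2.06-fold lower (adjusted p = 2.10e-04), the scavenger receptor Ackr3 was lower (-0.45, adjusted p = 0.00596) and Cxcr4 was higher (0.65, adjusted p = 0.00123). Ackr3 did not pass by totals, while Ramp3 and Cxcr4 did. Calcrl, which pairs with Ramp2, did not pass (adjusted p = 0.717).

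Among 10 genes of fatty acid handling at the capillary, 4 were lower and 1 higher with TMM (2 and 2 by totals). Lpl, the lipase that Gpihbp1 anchors, was 1.55-fold lower (adjusted p = 2.40e-04), and Pparg, a nuclear receptor that switches on Fabp4, lower as well (16.3 ± 1.16 to 10.9 ± 1.38 CPM, adjusted p = 0.00190). Angptl4, an inhibitor of the lipase, was 2.23-fold higher (55.6 ± 5.32 to 124 ± 9.79 CPM, adjusted p = 9.39e-06). In the hypoxia list 4 of 13 were lower and 3 higher with TMM (4 and 5 by totals). The smallest adjusted p were those of the oxygen sensors Egln3, 6.69-fold lower (adjusted p = 1.66e-06), and Egln1, 1.82-fold lower (adjusted p = 5.28e-06). Next came Epas1, the HIF-2 alpha subunit abundant in endothelium, 1.72-fold lower (502 to 293 CPM on average, adjusted p = 1.48e-05). The 3 higher ones included Pdk1 (log2 fold change 0.26, adjusted p = 0.0396) and Car9, at under 1 CPM (0.70, adjusted p = 0.0366).

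Lists for kinds of vessel held 1 to 3 called genes each with TMM. In 10 arterial genes Cxcr4 was higher and Efnb2 (-0.27, adjusted p = 0.0104) and Sema3g (-0.39, adjusted p = 0.0150) lower with TMM (4 higher and none lower by totals). Of 11 Notch genes, Hey2 was 5.83-fold higher (8.76 ± 1.10 to 51.3 ± 12.8 CPM, adjusted p = 5.68e-06) and Jag2 and Hes1 were lower (-0.33 and -0.50), with 3 higher and none lower by totals. In 6 venous genes Vcam1 alone was called, 2.84-fold higher (18.9 ± 0.912 to 53.5 ± 6.61 CPM, adjusted p = 3.00e-06). Fold changes were negative in 3 of the 6, Nr2f2 (-0.22) and Ephb4 (-0.12) among them, and none of these passed. Which cells the Hey2 and Vcam1 transcripts come from was not tested. In 6 endocardial genes Tmem100 alone was called with TMM, 2.77-fold lower (42.0 ± 7.01 to 15.2 ± 5.41 CPM, adjusted p = 5.51e-04; SD, n = 3 each), and 3 others were higher by totals.

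Markers of other heart cells moved beside the endothelial ones, and their part in the results above was not tested. Heart muscle markers were lower with TMM in 8 of 12 and higher in none, with sums of 86132 to 95518 CPM in control and 46415 to 48809 CPM in mutant hearts, led by Myh6, Tnni3 and Ryr2 (4 lower and 2 higher by totals). Myh6 alone went from 37265 to 3830 CPM on average and made up most of the change in that sum, while the list median was -0.33 on the log2 scale. Fibroblast markers were higher in 3 of 10 (Tcf21, Dcn and Pdgfra) with sums of 2786 to 3172 CPM and 3184 to 3552 CPM, and higher in 9 of 10 by totals. Pericyte and smooth muscle markers were higher in 2 of 10 (Cspg4 and Cnn1) and lower in 3 (Kcnj8 among them), with sums of 2484 to 2712 CPM and 2290 to 2379 CPM (3 higher and none lower by totals). Macrophage markers, led by Csf1r, C1qc and C1qb, were lower in 8 of 10 on both scales. All 10 mitosis genes were higher on both scales, led by Ccna2, Bub1 and Cdk1, with sums of 16.8 to 22.3 CPM in control and 52.3 to 68.2 CPM in mutant hearts.

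Markers of blood cells left in the hearts were low. The erythroid markers, led by Hbb-bs and Hba-a1, summed to 158 to 245 CPM in control and 91.6 to 243 CPM in mutant hearts, and none of the 6 tested passed in edgeR (0 also at an unadjusted p under 0.05). Of 8 platelet markers 3 were tested, and Pf4 was lower (6.09 ± 0.403 to 3.51 ± 0.165 CPM, adjusted p = 2.98e-04), with sums over the list of 8.16 to 8.77 CPM and 5.89 to 6.53 CPM. In the mesothelium list 2 of 6 were tested and Wt1 was lower (-0.36, adjusted p = 0.0370), and in the Schwann cell and neuron list 4 of 7 were tested and Dbh was lower (-1.55, adjusted p = 3.07e-04).

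**Figure D4:**
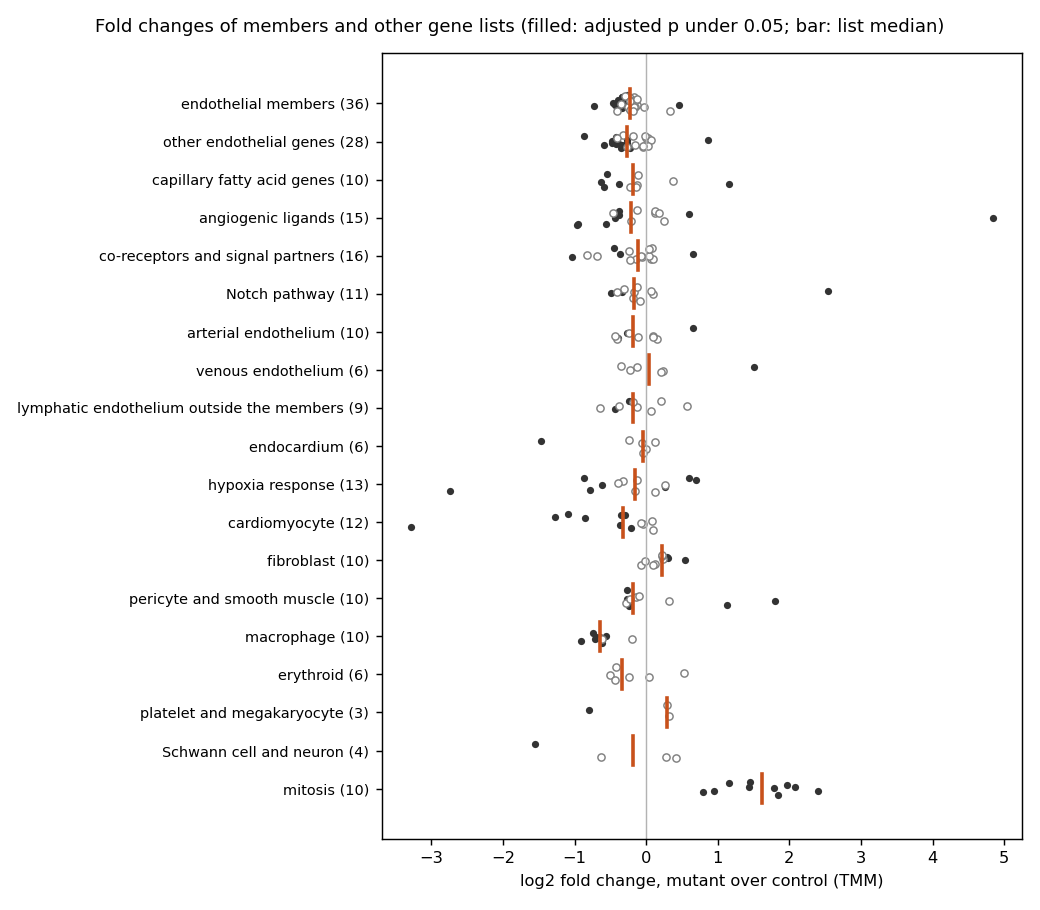
Log2 fold change (mutant over control, TMM scaling, horizontal axis) of every tested gene in the endothelial set and in each other list with at least 3 tested genes; filled points passed an adjusted p of 0.05 and the orange bar is the list median. The endothelial set (median -0.23) lies beside the other endothelial genes (-0.27), with macrophage markers further left (-0.65) and mitosis genes to the right (1.62).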

How the data were processed

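RNA was sequenced from 6 hearts, 3 control and 3 mutant, grouped by sample titles. Per the labels' protocols, flash-frozen hearts were extracted with Trizol and libraries made with a TruSeq kit that does not mark strand. The authors deposited whole-number counts per Ensembl gene and RPKM values for each heart. The submitters' processing notes name featureCounts 1.5.1, STAR 2.5.2b, cutadapt 1.9 and the mm10 build without saying what each did. How strand was treated in counting is not given in the sources used here. RPKM as deposited behaved as the count divided by gene length and by about the library total. Count over RPKM, set level by each library's median over genes, was the same between libraries within 4.03e-08. That shows fixed gene lengths and not how libraries were scaled. Erg stood at 10.8 RPKM in control replicate 1 and 11.3 in mutant replicate 1. Its CPM there was 37.6 and 39.3 by library totals, and 41.5 and 36.3 with TMM, so RPKM followed the totals and held no TMM scaling.

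Symbols came from GENCODE M21, which named 20081 of 20121 identifiers. The test of counts used edgeR 4.0.16 (R 4.3.3): filterByExpr kept 14877 genes and removed 5244, libraries were scaled by TMM, and the quasi-likelihood F test had group as its only term, with Benjamini-Hochberg adjustment over all genes tested and a threshold of 0.05. SE values on log2 fold changes were approximated as the absolute log2 fold change over the square root of F. The test was first tried on simulated counts with few changed genes, which has no bearing on the choice of scaling. Alternatives were library totals without TMM, totals without mitochondrial genes, RLE size factors, other filters, DESeq2 1.42.0, limma 3.58.1 on log2(RPKM + 1) and log2(RPKM + 0.1), a replicate block, each heart left out, and scaling to other endothelial genes. The pups are littermates by the labels, and the fit had no term for litter. The p-values set the difference between groups against the spread within groups, estimated in part across all genes. They cover these 6 hearts only.

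The 36 genes and the 20 other gene lists were chosen with earlier results of these data known, so no p is given for a list. Every member is named. Values in each heart are given for the members with the smallest adjusted p, the highest mean RPKM, or overlapping groups. Up to 3 called genes with the smallest adjusted p are named per list, or the 2 most abundant where none is called. Vegfa, Vegfb, Vegfc, Angpt2, Calcrl, Cd34, Cd93, Nr2f2, Ephb4, Pdk1, Car9 and the exceptions stated were named in addition.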

Additional observations from a re-analysis of the deposited data

How the results depend on the processing

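The number of calls moved with the scaling. Over all genes, the number called higher went from 2688 to 7479 without TMM, 5332 with totals free of mitochondrial genes, 7349 with limma on log2(RPKM + 1), 7391 on log2(RPKM + 0.1) and 5975 when scaled to the other endothelial genes, and the number called lower from 2898 to 1207, 1651, 1215, 1221 and 1411 in the same order. Under those settings 2 endothelial genes were higher each time, and 1, 4, 1, 1 and 3 were lower instead of 15; the median was 0.056, -0.057, 0.049, 0.054 and -0.018 instead of -0.23. Fold changes of called genes turned positive without TMM, on log2(RPKM + 1) and on log2(RPKM + 0.1) for Pecam1 (0.077, 0.073 and 0.074), Kdr (0.048, 0.046 and 0.048), Erg (0.058, 0.052 and 0.056), Icam2 (0.011, 0.0090 and 0.0095) and Ramp2 (0.012, 0.011 and 0.011), and for Pecam1 (0.0071) when scaled to the other endothelial genes. RLE size factors, no filter and a filter at a mean of 1 CPM kept 15 lower and 1 higher. Over all genes these called 2854, 2811 and 2700 lower and 2738, 2630 and 2472 higher. DESeq2 gave 17 and 1, beside 2738 lower and 2601 higher over all genes. Leaving out 1 heart gave 10 to 16 lower endothelial genes, medians from -0.28 to -0.21, and 2039 to 2661 higher and 2234 to 2856 lower genes overall. With the replicate number as a block, 23 endothelial genes were lower and 2 higher, beside 3229 lower and 3090 higher of all 14877 genes. The numbers share no stated origin, and hearts with the same number did not deviate together in every pair (correlations 0.15, -0.05 and 0.10). This pairing is therefore not used. Depth limits no endothelial gene here, since each had at least 249 counts in every heart; 3 hearts in a group limit the precision.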
